A study of Homo sapiens with 4 samples.

Results

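The genes described here are 10 members of the EGF receptor system: the ERBB receptor genes EGFR, ERBB2 and ERBB3, the ligand genes AREG, EREG, HBEGF, TGFA, BTC and NRG1, and the receptor inhibitor gene ERRFI1. They were taken by gene name from tables of 51103 genes, and all 10 were present. The libraries came from polyadenylated RNA of SCC-15, a human cell line labelled as oral squamous cell carcinoma. There were 2 libraries of cells infected with lentivirus to overexpress REEP6, an endoplasmic reticulum membrane protein (REEP6), and 2 libraries of the negative control cells (NC). The labels do not say what the negative control carried, whether each group was a pool or a clone, or whether replicates were grown as separate cultures. The p-values therefore reflect only how far these particular libraries scatter, and that scatter may be technical.

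ERBB receptors are membrane tyrosine kinases that pair when a ligand with an EGF-like domain binds. EGFR binds several of the ligands, ERBB2 has no known ligand of its own and acts as the preferred partner of the others, and ERBB3 binds neuregulins and has little kinase activity. The ligands are made as membrane-anchored precursors and released by ADAM proteases. The receptors then signal through the RAS-ERK and PI3K-AKT pathways, which induce inhibitors of the receptor such as ERRFI1. EGFR is well known in squamous cell carcinoma of the head and neck, where its level is often raised.

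With REEP6 overexpression the ligand gene AREG fell 5.25-fold, the receptor gene ERBB2 rose 1.83-fold, and smaller changes ran in both directions within the family. The receptor gene EGFR and the ligand gene TGFA rose 1.30-fold and 1.26-fold, while the ligand gene EREG and the inhibitor gene ERRFI1 fell 1.38-fold and 1.25-fold. A gene was tested when it reached 1 FPKM (fragments per kilobase of gene length, scaled to library size) in at least 2 libraries, and a call is a Benjamini-Hochberg adjusted p under 0.05 over all 13077 genes tested. Of the 10 members 6 met that filter, of which 3 rose and 3 fell, while 25.1% of all genes tested were called (10.9% higher and 14.2% lower). AREG met the filter through the NC libraries alone, so its place among the 6 depended on its being higher there. ERBB3, HBEGF, BTC and NRG1 were under the filter.

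**Figure D1:**
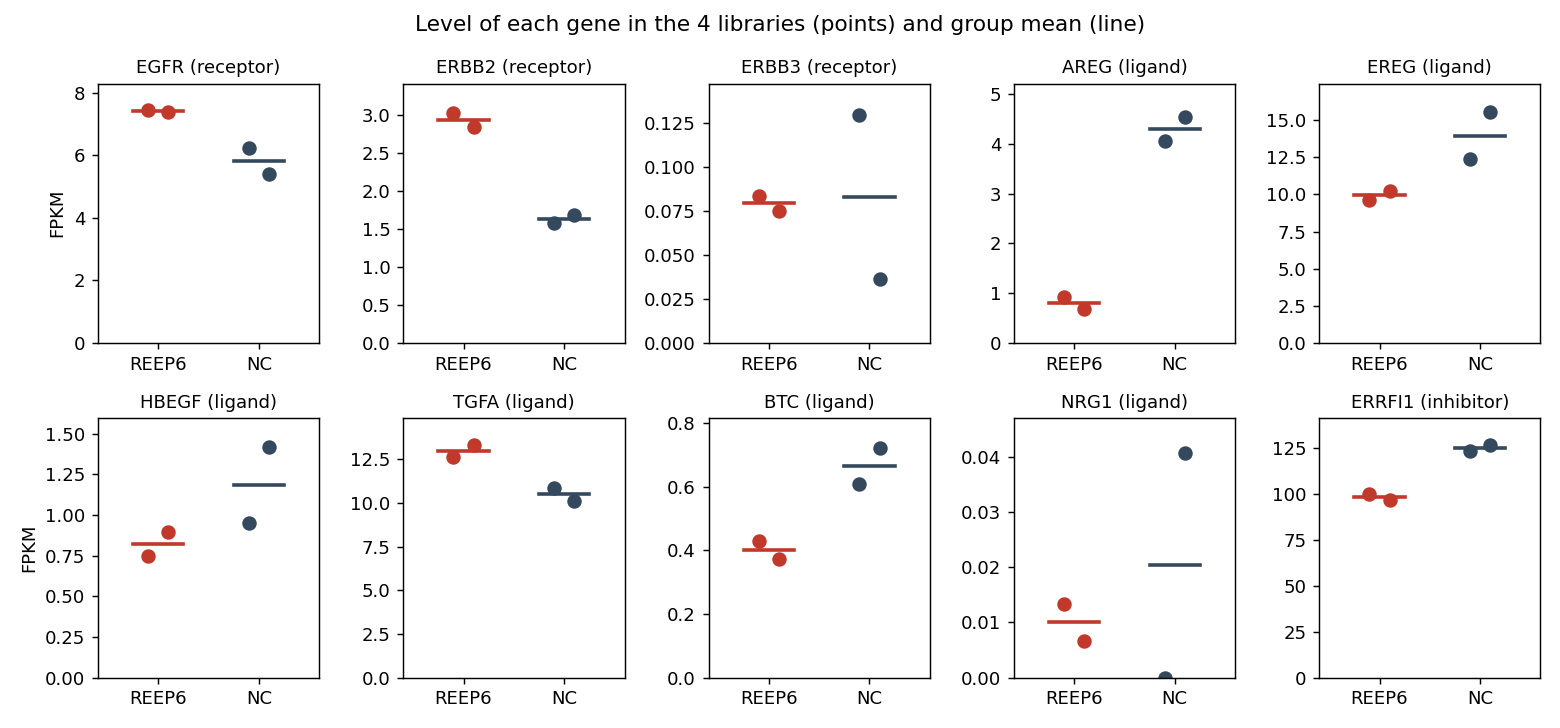
FPKM of the 10 genes in each library, with REEP6 (red) left of NC (dark blue), points for the 2 libraries of a group and a line for their mean. Each panel has its own linear axis from 0. The groups do not overlap for the 6 genes tested or for HBEGF and BTC, as for 63.6% of all genes tested. The panels of ERBB3 and NRG1 rest on at most 15 counts.

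Promoters of the ligand neighbours AREG and EREG, which were both lower with REEP6, and of EGFR, which was higher, are shown because these members moved together or apart. RefSeq promoter entries on GRCh38.p14 matched 8 of the 10 members. The 250 bases before the start site are given 5′ to 3′, at chr4:74444886-74445135 for AREG, chr4:74364895-74365144 for EREG and chr7:55018767-55019016 for EGFR, all on the plus strand. Capitals mark matches on either strand to the TATA box TATAAA, the cAMP response element TGACGTCA, the GC box GGGCGG, the AP-1 site TGANTCA or the ETS site CCGGAAGT.
AREG: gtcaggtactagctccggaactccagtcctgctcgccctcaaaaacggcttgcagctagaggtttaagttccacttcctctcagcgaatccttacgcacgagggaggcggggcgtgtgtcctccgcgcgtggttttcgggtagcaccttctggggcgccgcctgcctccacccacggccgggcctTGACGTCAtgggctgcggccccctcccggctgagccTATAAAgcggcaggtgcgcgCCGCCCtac
EREG: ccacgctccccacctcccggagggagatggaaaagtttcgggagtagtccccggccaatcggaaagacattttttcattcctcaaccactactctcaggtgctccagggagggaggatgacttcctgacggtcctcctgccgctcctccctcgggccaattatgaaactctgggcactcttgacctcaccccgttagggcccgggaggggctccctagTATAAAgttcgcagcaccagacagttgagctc
EGFR: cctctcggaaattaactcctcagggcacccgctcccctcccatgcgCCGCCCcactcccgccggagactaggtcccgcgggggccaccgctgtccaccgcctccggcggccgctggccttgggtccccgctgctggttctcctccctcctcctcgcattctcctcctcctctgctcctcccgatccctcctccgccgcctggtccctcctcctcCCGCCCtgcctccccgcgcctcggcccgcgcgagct
The windows of AREG and EREG each held a TATA box, ending 23 and 26 bases before the start, and the EGFR window held none. The window of ERRFI1, which also fell, held no TATAAA either, with 1 GC box and a GC content of 75.2%. Those of TGFA and ERBB2, which rose, held no TATAAA. The windows of HBEGF and BTC, under the filter but lower in each REEP6 library than in each NC library, held no TATAAA either. The starts used for TGFA, ERBB2 and BTC lay 367, 180 and 163 bases from the GENCODE 5′ end of the gene. EGFR and TGFA each had 2 RefSeq starts, and the one nearest that end was used. Any link of motifs to direction was not tested. Of 35116 promoter windows of this length 10.7% held TATAAA. AREG also held the cAMP response element, found in 1.65% of all windows. GC boxes, found in 42.6% of all windows, occurred 2 times in EGFR, 1 time in AREG and 0 times in EREG. The ERBB2 window held 2 ETS sites and an AP-1 site, against 3.42% and 6.57% of all windows with each. The GC content was 65.2% for AREG, 58.0% for EREG and 73.6% for EGFR, and the median of all windows was 58.0%. None of the motifs overlapped another in the sequences shown, and binding was not measured.

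The libraries held 13236417 and 13302967 counts for REEP6 and 12856256 and 15208629 for NC. As a check of the labels, REEP6 itself had 20.0 and 20.9 FPKM in the REEP6 libraries and 11.1 and 12.6 FPKM in the NC libraries. This was a 1.76-fold rise (edgeR adjusted p 0.00119), which has the direction of the labels but is smaller than the 1.83-fold rise of ERBB2. Mitochondrially encoded genes took 5.81% and 6.02% of counts in the REEP6 libraries and 3.90% and 5.44% in the NC libraries. The labelled cell type was checked against 10 squamous epithelial markers, of which 3 were tested, namely the simple keratin genes KRT8 and KRT18 and EPCAM. KRT8 had 183 and 178 FPKM with REEP6 and 164 and 177 FPKM in NC and was not called (edgeR adjusted p 0.392). KRT18 rose, with 221 and 231 FPKM with REEP6 and 178 and 182 FPKM in NC (log2 fold change 0.36, edgeR adjusted p 0.0123). EPCAM had 1.83 and 2.36 FPKM with REEP6 and 0.957 and 1.36 FPKM in NC and was not called (edgeR adjusted p 0.0550). KRT5, KRT14, KRT6A, KRT17, the E-cadherin gene CDH1, SFN and the squamous lineage factor gene TP63 had between 0 and 14 counts in any library, so the defining basal squamous genes were at or near 0. VIM, the mesenchymal intermediate filament gene (chosen after its values were seen), had 289 and 294 FPKM in the REEP6 libraries and 204 and 226 FPKM in the NC libraries. Of 10 fibroblast markers 4 were tested, LUM, POSTN, COL3A1 and PDGFRB, and these 4 were lower with REEP6, although POSTN met the filter through the NC libraries alone. PDGFRA, just under the filter, was higher, with 127 and 137 counts in the REEP6 libraries and 83 and 105 in the NC libraries (log2 fold change 0.62 in the fit without a filter, edgeR adjusted p 0.0338). The fibroblast list summed to 18.3 and 18.1 FPKM in the REEP6 libraries and 36.6 and 34.5 FPKM in the NC libraries, with FAP at 0 counts in all 4. None of the 16 endothelial, leukocyte and melanocyte markers was tested, and these lists summed to 0.0995 to 1.51 FPKM per library. In the fit without a filter the endothelial marker PECAM1 was lower, with 4 and 5 counts in the REEP6 libraries and 33 and 31 in the NC libraries (edgeR adjusted p 2.99e-05). The melanocyte marker MITF was also lower there, with 40 and 57 counts in the REEP6 libraries and 75 and 110 in the NC libraries (edgeR adjusted p 0.0175). The part of these markers and of the mitochondrial share in the results below was not tested. In bulk RNA fewer cells of a type and less RNA per cell cannot be told apart.

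Among the receptors, EGFR (chromosome 7, 55019021 to 55211628, plus strand, GRCh38) was the most abundant. It had 7.43 and 7.38 FPKM in the REEP6 libraries, from 1232 and 1229 counts, and 6.22 and 5.39 FPKM in the NC libraries, from 1002 and 1027 counts. The REEP6 values lay close together and above both NC values. The log2 fold change was 0.38 ± 0.0975 (SE; 95% interval 0.16 to 0.60; edgeR adjusted p 0.0203). The call ended when FPKM sums were made equal (log2 fold change 0.24, edgeR adjusted p 0.125), a scaling that moved the median of all genes to -0.14, and without REEP6 replicate 1 (edgeR adjusted p 0.0635) or NC replicate 2 (0.0618). EGFR-AS1, a transcript from the opposite strand within the gene, had 17 and 4 counts in the REEP6 libraries and 8 and 6 in the NC libraries. Whether counting used strand is not given in the sources used here, and reads of this pair may be mixed.

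ERBB2 (chromosome 17, 39687914 to 39730426, plus strand), the ligandless partner, had 3.03 and 2.85 FPKM in the REEP6 libraries and 1.58 and 1.69 FPKM in the NC libraries. These came from 414 and 391 counts with REEP6 and 210 and 265 in NC, and the groups were far apart relative to their spread. The log2 fold change was 0.87 ± 0.131 (SE; 95% interval 0.58 to 1.16; edgeR adjusted p 0.00196), rank 168 by size among the 1422 genes that rose. ERBB2 stayed called in each of the 12 alternatives that held it, with edgeR, limma or DESeq2 adjusted p-values of at most 0.0352. A pair of neighbours on the opposite strand overlap its ends, MIEN1 by 1931 bases and PGAP3 by 8884 bases. MIEN1, which codes for a small membrane-associated protein, also rose, with 5.04 and 5.28 FPKM in the REEP6 libraries against 3.60 and 3.16 FPKM in the NC libraries (log2 fold change 0.64, edgeR adjusted p 0.0277). PGAP3, an enzyme of GPI-anchor remodelling, had 2.78 and 2.85 FPKM with REEP6 and 3.41 and 2.87 FPKM in NC (log2 fold change -0.13, edgeR adjusted p 0.636). How reads in these overlaps were assigned is not given, so the separate values of ERBB2, MIEN1 and PGAP3 are uncertain to that extent.

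ERBB3, the neuregulin receptor with weak kinase activity, had 10 and 9 counts in the REEP6 libraries and 15 and 5 in the NC libraries, or at most 0.129 FPKM. The NC values enclosed the REEP6 values, and no difference was detectable at this depth. EGFR made up 70.5% and 71.6% of the summed FPKM of the 3 receptor genes in the REEP6 libraries and 78.4% and 75.8% in the NC libraries. The ERBB2 share was 28.7% and 27.6% with REEP6 and 19.9% and 23.7% in NC. The FPKM ratio of EGFR to ERBB2 was 2.45 and 2.59 in the REEP6 libraries and 3.93 and 3.19 in the NC libraries. For 2 libraries against 2 the smallest two-sided p of an exact permutation test is 0.333, and shares and ratios are given without a test.

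Among the ligands, AREG (amphiregulin, chromosome 4, 74445134 to 74455009, plus strand), a low-affinity EGFR ligand, changed most. It had 0.917 and 0.684 FPKM in the REEP6 libraries, from 20 and 15 counts, and 4.06 and 4.55 FPKM in the NC libraries, from 86 and 114 counts. Both REEP6 libraries were far below both NC libraries. The log2 fold change was -2.39 ± 0.295 (SE; 95% interval -3.06 to -1.73; edgeR adjusted p 0.000935), which placed AREG 11 by size of fall among the 1854 genes that fell. It stayed called in each of the 12 alternatives that held it, at log2 fold changes of -2.63 to -1.56. The mildest value came from limma on log2(FPKM + 1), a scale that understates the change of low genes. AREG met the filter through the NC libraries alone, which limits what its rank and the alternatives that reuse the filter can show. In the fit without a filter its log2 fold change was -2.38 (edgeR adjusted p 1.66e-12).

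EREG (epiregulin, chromosome 4, 74365143 to 74388751, plus strand), which activates EGFR and ERBB4, had 9.62 and 10.2 FPKM in the REEP6 libraries and 12.4 and 15.6 FPKM in the NC libraries. The 2 NC values differed from each other more than the REEP6 values did, but all NC values were higher. The log2 fold change was -0.47 ± 0.119 (SE; 95% interval -0.73 to -0.20; edgeR adjusted p 0.0199). Without NC replicate 2 it was -0.26 and no longer called (edgeR adjusted p 0.116).

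TGFA (transforming growth factor alpha, chromosome 2, 70447280 to 70554193, minus strand), an EGFR ligand, went the other way. It had 12.6 and 13.3 FPKM in the REEP6 libraries and 10.9 and 10.1 FPKM in the NC libraries, again without overlap. The log2 fold change was 0.34 ± 0.0939 (SE; 95% interval 0.13 to 0.55; edgeR adjusted p 0.0278). This call was the least stable of the 6 genes: it ended in 7 of 13 alternatives, among them equal FPKM sums (log2 fold change 0.20, edgeR adjusted p 0.172), DESeq2 (adjusted p 0.0528) and the fit without any of REEP6 replicate 1 (edgeR adjusted p 0.0762), REEP6 replicate 2 (0.146) or NC replicate 2 (0.0665).

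The remaining ligands were scarce. HBEGF, the heparin-binding ligand of EGFR and ERBB4, had 30 and 36 counts in the REEP6 libraries and 37 and 65 in the NC libraries, or 0.751 and 0.897 FPKM against 0.954 and 1.42 FPKM. BTC (betacellulin) had 16 and 14 counts with REEP6 and 22 and 31 in NC. Values of both were lower in each REEP6 library than in each NC library. Fitted without a filter on low values, neither was called: the log2 fold change was -0.49 ± 0.316 (SE; edgeR adjusted p 0.403) for HBEGF and -0.69 ± 0.448 (SE; edgeR adjusted p 0.410) for BTC. NRG1 (neuregulin 1, chromosome 8), the ligand of ERBB3 and ERBB4, had 2 and 1 counts in the REEP6 libraries and 0 and 7 in the NC libraries, too few for a fold change. The 0 of NC replicate 1 allows up to 3 counts, or 0.233 CPM, for counting error only.

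The makeup of the ligand transcripts differed accordingly. The 6 ligand genes summed to 24.4 and 25.5 FPKM in the REEP6 libraries and 28.8 and 32.4 FPKM in the NC libraries. AREG contributed 3.76% and 2.68% of this sum with REEP6 and 14.1% and 14.0% in NC. TGFA contributed 51.9% and 52.2% with REEP6 and 37.7% and 31.2% in NC, and EREG 39.5% and 40.1% with REEP6 and 42.8% and 48.0% in NC. TGFA was therefore the most abundant ligand transcript in both REEP6 libraries, and EREG in both NC libraries. The FPKM ratio of TGFA to EREG was 1.31 and 1.30 in the REEP6 libraries and 0.879 and 0.649 in the NC libraries. EREG exceeded AREG 10.5 and 15.0 times in the REEP6 libraries and 3.04 and 3.42 times in the NC libraries.

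**Figure D2:**
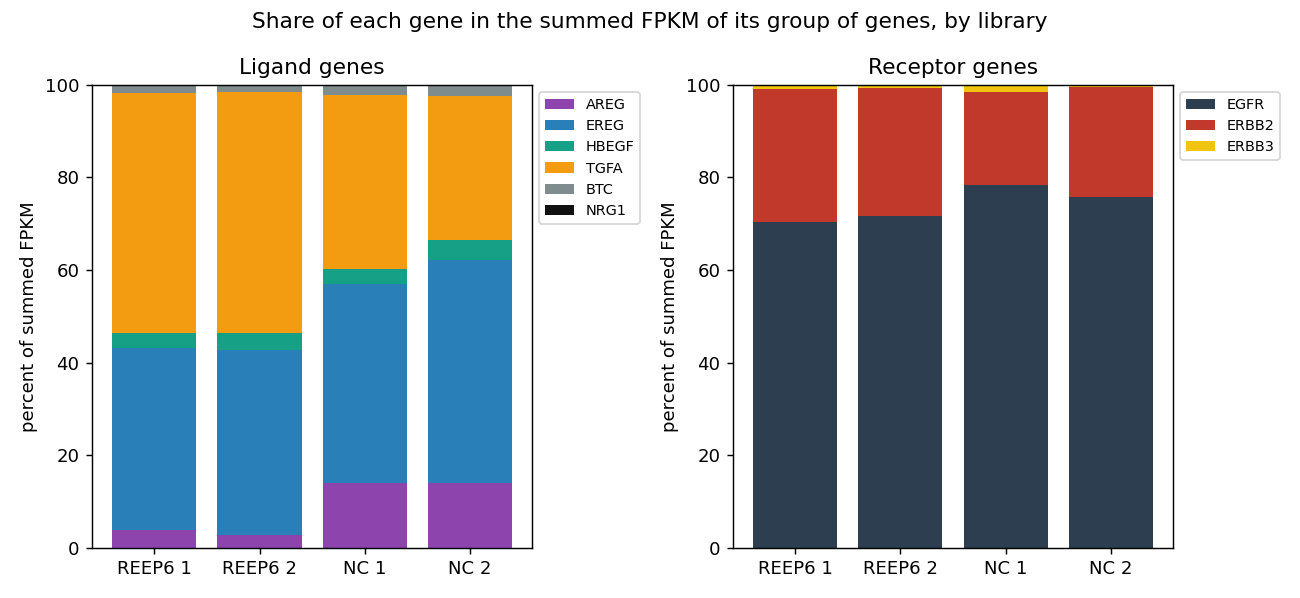
Percent of the summed FPKM of the 6 ligand genes (left) and the 3 receptor genes (right) in each library, with the REEP6 libraries left of the NC libraries. The AREG share is 3.76% and 2.68% with REEP6 and 14.1% and 14.0% in NC, and the TGFA share is 51.9% and 52.2% with REEP6 and 37.7% and 31.2% in NC.

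EREG, AREG and BTC lie in a single stretch of chromosome 4 together with EPGN, the gene of a further EGFR ligand. From EPGN to BTC the stretch spans 486 kb, with 56383 bases between the end of EREG and the start of AREG. BTC, on the minus strand, begins its annotated span 289750 bases after the end of AREG. EPGN had 2 and 3 counts in the REEP6 libraries and 4 in each NC library. BTC and EPGN rest on few counts and were not tested. The TGFA gene, which rose, lies on chromosome 2, and ERRFI1, which fell, lies on chromosome 1. Any part of gene position was not tested.

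ERRFI1 (also known as MIG6, chromosome 1, 8004404 to 8026308, minus strand), which binds the EGFR kinase domain and blocks it, was by far the most abundant member. It had 99.8 and 97.0 FPKM in the REEP6 libraries and 123 and 127 FPKM in the NC libraries, within the top 1.99% of genes tested by mean level. The groups were clearly apart, and the log2 fold change was -0.32 ± 0.0813 (SE; 95% interval -0.50 to -0.14; edgeR adjusted p 0.0197). The size hardly moved on leaving out libraries (log2 fold change -0.35 to -0.27). The call ended without REEP6 replicate 1, REEP6 replicate 2 or NC replicate 2 but held without NC replicate 1. The reason for this was not tested. An antisense transcript, AL034417.4, overlaps its end by 909 bases and had at most 26 counts in any library.

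**Figure D3:**
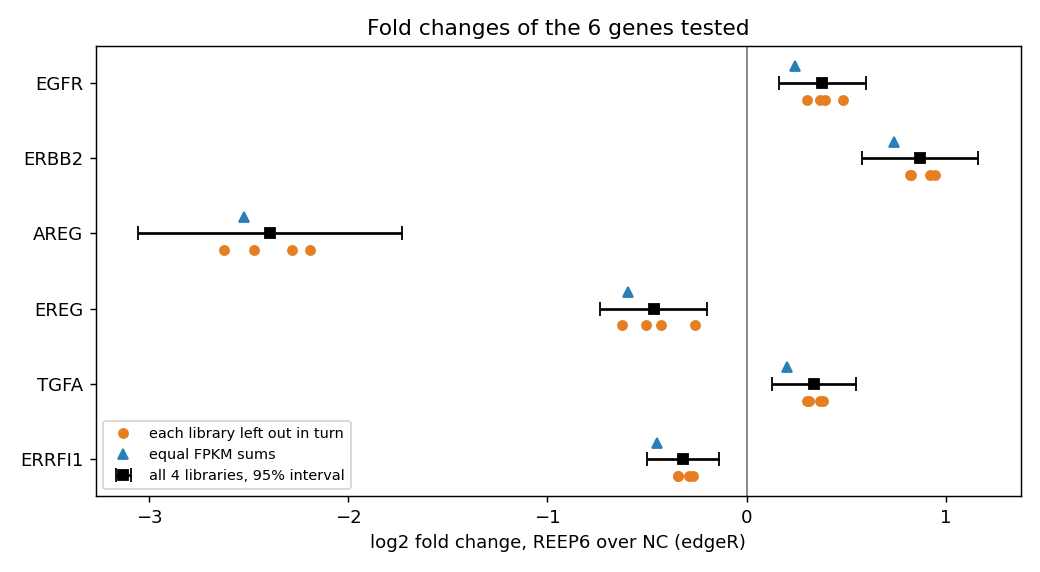
Log2 fold changes of the 6 genes tested, REEP6 over NC. Squares and bars give the edgeR estimate and its 95% interval, circles the 4 fits that leave out a library, and triangles the fit with equal FPKM sums. AREG lies at -2.39 and ERBB2 at 0.87, and EGFR, TGFA, EREG and ERRFI1 lie between -0.47 and 0.38. None of the points crosses 0.

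By level, the members ran in the REEP6 libraries from ERRFI1 through TGFA, EREG, EGFR, ERBB2, HBEGF, AREG, BTC and ERBB3 to NRG1. In the NC libraries the order was ERRFI1, EREG, TGFA, EGFR, AREG, ERBB2, HBEGF, BTC, ERBB3 and NRG1. Neighbours in these orders overlapped in FPKM only for HBEGF and AREG in the REEP6 libraries and for ERBB3 and NRG1 in the NC libraries. AREG therefore stood 7 in order with REEP6 and 5 in NC, above ERBB2 in NC and below it with REEP6. Over the 4 libraries the profile of EGFR was nearest to that of TGFA (root mean square distance 0.0525 on the log2 scale), and that of EREG to ERRFI1 (0.132). AREG had no close neighbour among the members, the nearest being EREG at 0.934. These distances largely restate the fold changes given above. The 6 genes tested did not overlap between groups, as was the case for 63.6% of all genes tested (30.4% higher and 33.2% lower).

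The number of members called changed with the setting, as did the share of all genes called. All 6 were called with median-of-ratios scaling (24.9% of all genes), with library totals (24.6%) and with no filter (13.8%). Equal FPKM sums called 4 (26.6%), DESeq2 called 5 (19.6%), and limma called 3 at a pseudocount of 1 (14.6%) and 3 at 0.1 (14.0%). A minimum of 5 FPKM kept 4 members and called all 4 (31.6%). Without REEP6 replicate 1 there were 3 (16.9%), without REEP6 replicate 2 there were 4 (19.1%), without NC replicate 1 there were 6 (23.8%), and without NC replicate 2 there were 2 (22.7%).

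The other genes of the pathway were counted by lists chosen with earlier results of these data known. Each count of the main fit stands beside the 10.9% of all genes tested that were higher and the 14.2% that were lower. These shares do not hold for other settings: with equal FPKM sums 661 of all 13077 genes tested were higher and 2824 lower. Of the 6 remaining family genes, ERBB4, EGF, EPGN and NRG3 were under the filter, with 0 to 23 counts in any library. The neuregulin genes NRG2 and NRG4 were tested and not called. NRG2 had 2.21 and 1.98 FPKM in the REEP6 libraries and 1.69 and 1.95 FPKM in the NC libraries (log2 fold change 0.23, edgeR adjusted p 0.413). NRG4 had 1.26 and 1.58 FPKM with REEP6 and 1.89 and 2.01 FPKM in NC (log2 fold change -0.43, edgeR adjusted p 0.139).

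Of 12 genes for the release and transport of ligands 10 were tested, and 2 rose and 3 fell (50% called, against 25.1% of all genes tested). Without REEP6 replicate 2 or NC replicate 1 there was 1 higher, and without NC replicate 2 there were 5 lower. Equal FPKM sums gave 1 higher and 5 lower, and limma called 0 higher. Their median log2 fold change was -0.21, against -0.01 for all genes tested. ADAM10, a protease that releases EGF and BTC, had 6.18 and 6.38 FPKM in the REEP6 libraries and 10.0 and 10.4 FPKM in the NC libraries (log2 fold change -0.67 ± 0.0842 SE, edgeR adjusted p 0.000971). ADAM9, a related protease, fell by 0.67 on the log2 scale (edgeR adjusted p 0.00108), and TIMP3, a secreted inhibitor of ADAM17, by 0.69 (edgeR adjusted p 0.000896). ADAM17, the main protease for AREG, EREG, HBEGF and TGFA, had 5.75 and 6.63 FPKM with REEP6 and 8.28 and 7.36 FPKM in NC and was not called (log2 fold change -0.31, edgeR adjusted p 0.0555). RHBDF2, the inactive rhomboid that carries ADAM17 to the cell surface, rose to 2.30 and 2.59 FPKM in the REEP6 libraries, against 1.40 and 1.55 FPKM in the NC libraries (log2 fold change 0.75 ± 0.163 SE, edgeR adjusted p 0.00986). RHBDF2 was not called by limma at a pseudocount of 1 (adjusted p 0.0602). ADAM17 and ADAM15 were named after their values were seen. ADAM15 rose, with a log2 fold change of 0.42 (edgeR adjusted p 0.0237).

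Adaptors and enzymes next to the receptor moved in both directions, with 3 of 13 tested genes higher and 3 lower (46.2% called, against 25.1% of all genes tested) and a median log2 fold change of -0.02. SOS1, the exchange factor that activates RAS, had 8.49 and 9.13 FPKM in the REEP6 libraries and 15.9 and 15.0 FPKM in the NC libraries (log2 fold change -0.78 ± 0.0882 SE, edgeR adjusted p 0.000670). Its adaptor GRB2 rose, with a log2 fold change of 0.39 (edgeR adjusted p 0.0141), as did the adaptor CRKL (0.33, edgeR adjusted p 0.0190) and the kinase SRC (0.95, edgeR adjusted p 0.0132). SRC was low, at 1.34 and 1.70 FPKM in the REEP6 libraries and 0.890 and 0.722 FPKM in the NC libraries, and met the filter through the REEP6 libraries alone. The calls of GRB2 and CRKL ended with equal FPKM sums, at log2 fold changes of 0.26 and 0.20, and limma called none of the 3 genes higher. Without REEP6 replicate 1 the calls of GRB2 (edgeR adjusted p 0.0710) and CRKL (0.0791) ended, and without REEP6 replicate 2 those of CRKL (0.109) and SRC (0.0691), which left 1 gene higher in each case. The exchange factor gene SOS2 and the adaptor gene NCK1, named after their values were seen, fell by 0.36 (edgeR adjusted p 0.0404) and 0.48 (0.0204) on the log2 scale. Without REEP6 replicate 1 or NC replicate 2 the number lower was 1.

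Regulators that limit or sort the receptor had 2 of 17 tested genes higher and 4 lower (35.3% called, against 25.1% of all genes tested), with a median log2 fold change of -0.21. The ubiquitin ligase gene CBL, which marks activated EGFR for degradation, rose (log2 fold change 0.45 ± 0.0905 SE, edgeR adjusted p 0.00750). Its paralog CBLB fell by 0.61 on the log2 scale (edgeR adjusted p 0.0104), but leaving out REEP6 replicate 1 ended this call (log2 fold change -0.44, edgeR adjusted p 0.0585), as did limma at either pseudocount (adjusted p 0.0685 and 0.0714). SOCS4 and SOCS5, suppressors that bind EGFR, fell by 0.63 and 0.64, and USP8, which removes ubiquitin from EGFR on endosomes, by 0.58. With equal FPKM sums, which called 661 of all genes tested higher and 2824 lower, 1 gene of the list was higher and 9 lower. There was also 1 higher without REEP6 replicate 1, REEP6 replicate 2 or NC replicate 1. The gene of RNF41, a ligase that acts on ERBB3, also rose (log2 fold change 0.36, edgeR adjusted p 0.0251), and is named after its value was seen.

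Of the 14 RAS-ERK cascade genes 2 rose and 2 fell (28.6% called, close to the 25.1% of all genes tested), with a median log2 fold change of -0.03. The kinase genes MAP2K1 and MAPK3 rose with log2 fold changes of 0.39 (edgeR adjusted p 0.0217) and 0.35 (edgeR adjusted p 0.0349), while RPS6KA3 and BRAF fell by 0.44 (edgeR adjusted p 0.00935) and 0.35 (edgeR adjusted p 0.0264) on the log2 scale. With equal FPKM sums neither MAP2K1 nor MAPK3 was called (edgeR adjusted p 0.0870 and 0.139). Leaving out REEP6 replicate 1 (edgeR adjusted p 0.119) or NC replicate 1 (0.0708) ended the call of MAP2K1, and that of MAPK3 ended without REEP6 replicate 1 (0.0587), REEP6 replicate 2 (0.143) or NC replicate 1 (0.134). BRAF was not called in any of the 4 fits that left out a library (edgeR adjusted p 0.0508 to 0.167), nor with DESeq2 (adjusted p 0.0865). The number higher was 0 without REEP6 replicate 1, 1 without NC replicate 1 and 3 without NC replicate 2, and the number lower was 1 in each of the 4 fits.

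Of 14 tested genes of the PI3K-AKT and STAT branch 1 rose and 5 fell (42.9% called, against 25.1% of all genes tested), with a median log2 fold change of -0.05. Without NC replicate 1 the number higher was 2. PIK3CA, the catalytic subunit p110 alpha, had 5.19 and 5.43 FPKM in the REEP6 libraries and 9.53 and 9.43 FPKM in the NC libraries (log2 fold change -0.81 ± 0.0893 SE, edgeR adjusted p 0.000628). The regulatory subunit genes PIK3R1 and PIK3R3 fell by 0.45 and 0.87 on the log2 scale, and the transcription factor gene STAT5A by 0.68 (edgeR adjusted p 0.0303). STAT5A was not called in any of the 4 fits that left out a library (edgeR adjusted p 0.0505 to 0.148), nor with DESeq2 (adjusted p 0.0929). PIK3CD, the p110 delta subunit, rose (log2 fold change 0.96 ± 0.204 SE, edgeR adjusted p 0.00905), although limma at a pseudocount of 1 did not call it (adjusted p 0.0609).

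Genes known as outputs of ERK had 7 of 16 tested members higher (43.8%, against 10.9% of all genes tested) and 0 lower (against 14.2%), with a median log2 fold change of 0.35. The ERK feedback genes SPRY1 and SPRY2 had log2 fold changes of 0.68 and 0.58, SPRED2 of 0.63 and the ETS factor gene ETV5 of 0.48. Their paralogs SPRY4 (log2 fold change -0.09, edgeR adjusted p 0.448) and SPRED1 (-0.19, edgeR adjusted p 0.155) were among the 9 tested genes of the list not called. Both are named after their values were seen. SPRY1 had 15.3 and 16.2 FPKM in the REEP6 libraries and 9.05 and 10.9 FPKM in the NC libraries. The phosphatase genes DUSP4 and DUSP6 and PHLDA1, a gene induced by growth factors, made up the rest of the 7 and are named after their values were seen. ERRFI1, also known as a gene induced by EGFR signalling, fell while these rose. The counts depended on the setting: equal FPKM sums gave 4 higher and 1 lower, limma at a pseudocount of 1 gave 5 higher and 0 lower, and leaving out a library gave 5 (without REEP6 replicate 2 or NC replicate 1) to 10 (without NC replicate 2) higher.

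**Figure D4:**
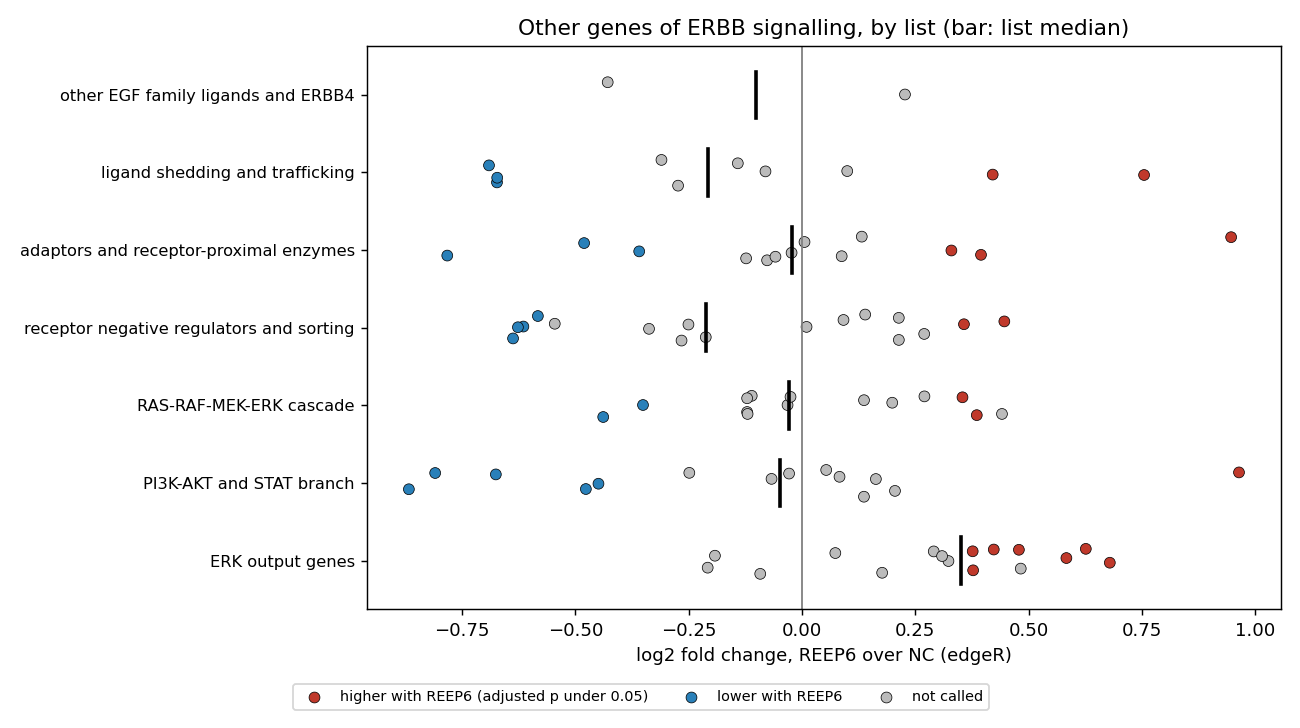
Log2 fold changes (REEP6 over NC, edgeR) of the other ERBB pathway genes tested, by list. Red points rose and blue points fell at an adjusted p under 0.05, grey points were not called, and black bars give the list medians, which run from -0.21 to 0.35.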

How the data were processed

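Raw counts and FPKM per Ensembl gene were deposited by the authors as 1 table per library. Per the submitters' processing notes, HISAT2, HTSeq 0.13.5 and GRCh38 were used, with no role stated. Annotation, strand setting and treatment of ambiguous reads: not given in the sources used here. Libraries were made with a NEBNext Ultra kit, per the labels' protocols. The deposited FPKM values were checked to equal counts scaled by library total and 1 length per gene (100% of 25261 genes, relative tolerance 0.0001).

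Groups came from the sample titles. Genes with at least 1 FPKM in at least 2 of 4 libraries were tested on counts with edgeR 4.0.16 (R 4.3.3): TMM scaling, quasi-likelihood fit with an abundance trend, group term only, 2 residual degrees of freedom, two-sided, Benjamini-Hochberg adjustment over 13077 genes. The fit shares information on the spread between replicates across genes. Tests and intervals therefore used total degrees of freedom with a median of 9.63, not the 2 residual ones alone. Each p-value and interval thus does not rest only on the scatter of that gene in the 4 libraries. The standard error is the log2 fold change over the square root of F. Replicates differed by more than counting noise (chi-square per degree of freedom 5.68 for REEP6 and 9.58 for NC). FPKM is given per library.

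Alternatives were median-of-ratios scaling, library totals, equal FPKM sums, DESeq2 1.42.0, limma 3.58.1 on log2(FPKM + 1) and log2(FPKM + 0.1), no filter, a minimum of 5 FPKM, leaving out each library, and the replicate number as a block. The genes, lists and tests were chosen with earlier results of these data known. Named were all members, up to 4 genes per list with the smallest p, called list genes with at least a 1.5-fold change, and others where stated; 1 list gene that the rule names is counted but not reported here by name. Coordinates are from GENCODE on GRCh38 (1-based) and promoters from RefSeq.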

Additional observations from a re-analysis of the deposited data

How the results depend on the processing

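No direction of the 6 genes tested reversed in any alternative run. ERBB2 and AREG kept their calls in all 12 alternatives that held them (a minimum of 5 FPKM removed both). EGFR was no longer called with equal FPKM sums (log2 fold change 0.24) or limma with a pseudocount of 1 (0.31) or 0.1 (0.35), TGFA with equal FPKM sums (0.20), DESeq2 (0.35) or limma (0.28 and 0.31), and EREG with limma (-0.45 and -0.48). Leaving out each library gave 0.30 to 0.48 for EGFR, 0.82 to 0.95 for ERBB2, -2.63 to -2.19 for AREG, -0.62 to -0.26 for EREG, 0.31 to 0.39 for TGFA and -0.35 to -0.27 for ERRFI1. The number of members called was 3 with either limma setting and ranged from 2 to 6 on leaving out a library: it was 3 without REEP6 replicate 1 and 2 without NC replicate 2. The cause was not tested. Over all genes, 1906 (634 higher, 1272 lower) and 1830 (597 higher, 1233 lower) were called with limma at the 2 pseudocounts, equal FPKM sums gave 661 higher and 2824 lower (19.0% of calls higher, against 43.4% with TMM), and 936 were higher with a minimum of 5 FPKM. With library totals 37.5% of calls were higher. Leaving out a library gave 2212 to 3118 calls, 940 to 1495 higher and 1272 to 1717 lower. Of the pathway list genes 34 were called, or 0% to 50% of those tested by list, against 25.1% of all genes tested. Either limma setting called 19 of them, against 34 in the main fit. Over all genes tested the limma calls were 1906 and 1830 (14.6% and 14.0%), against 3276 (25.1%) in the main fit. The replicate numbers are not stated to pair the libraries. Deviations of same-numbered libraries from their group means correlated at 0.27. A replicate block called 6019 of all 13077 genes tested (2957 higher, 3062 lower), against 3276 in the main fit. The list genes among them were 53, against 34 in the main fit. ERBB3, HBEGF, BTC and NRG1 had at most 65 counts per library, and depth limits what can be said of them.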
